A study of Mus musculus with 4 samples.

Results

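The locus described here lies on mouse chromosome 1 and holds Wnt6, Wnt10a, Ihh and Epha4. These 4 genes were taken by name from the annotation, out of 22380 protein-coding genes, and all 4 were found. ATAC-seq, in which the Tn5 transposase cuts and tags open chromatin, was run on fixed cells of forelimbs and hindlimbs together, from embryos at day E11.5 of the strain c57bl6.J X 129S6.sv. The study concerns the Maenli long non-coding RNA and the limb gene En1. Its libraries here are 2 labelled as mutant, with a stop cassette inserted, and 2 labelled as wild type, all with the same strain label. The labels do not give the position or zygosity of the insertion, or whether embryos were pooled. Nothing in them says that the libraries of a genotype came from separate embryos, so the p-values measure the spread between these libraries, which may be technical.

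Wnt6 and Wnt10a encode secreted Wnt ligands, which bind Frizzled receptors and are known from surface ectoderm and its appendages. Ihh encodes Indian hedgehog, a secreted ligand made by maturing chondrocytes of the growing skeleton, which acts through Ptch1 and Smo. Epha4 encodes a receptor tyrosine kinase that binds ephrins and is known for guiding motor axons in the limb. The locus is known for limb malformations caused by rearrangements that place distant elements of the Epha4 desert next to Wnt6 or Ihh.

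A window was drawn from 100 kb before Wnt6 to 500 kb after Epha4, chr1:74718466-78011663 in mm9. Its first 0.840 Mb, up to the end of Slc4a3, overlap 34 protein-coding genes and are called the gene-dense side. The remaining 2.45 Mb are called the desert, since Epha4 is the only protein-coding gene there. In mm9, Wnt6 (ENSMUSG00000033227.6) spans chr1:74818466-74831893 and Wnt10a (ENSMUSG00000026167.8) spans chr1:74838090-74850753, both on the plus strand. Ihh (ENSMUSG00000006538.8) spans chr1:74991891-74998246 and Epha4 (ENSMUSG00000026235.7) spans chr1:77363760-77511663, both on the minus strand. Each library has its own list of summits, positions of 1 bp where accessibility was called, with a score that reads as −log10 of a q-value. The score is the authors' and was used to rank summits, as a percentile within its own list from weakest (near 0) to strongest (100). An alternative that keeps scores above the median of the 4 pooled lists compares raw scores between lists. Values are given below in the order stop cassette replicates 1 and 2, then wild-type replicates 1 and 2.

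The 300 bases upstream of each member's annotated start are shown because the members differ there in the lists: a summit was listed at the Epha4 start in every library and at the Wnt10a start in none. They are from the mm9 genome, 5′ to 3′ on the gene's own strand, with each CpG in capitals. They cover chr1:74818166-74818465 (plus strand) for Wnt6, chr1:74837790-74838089 (plus) for Wnt10a, chr1:74998247-74998546 (minus) for Ihh and chr1:77511664-77511963 (minus) for Epha4. Ihh has 2 annotated starts, and its sequence lies upstream of the outermost one.
Wnt6: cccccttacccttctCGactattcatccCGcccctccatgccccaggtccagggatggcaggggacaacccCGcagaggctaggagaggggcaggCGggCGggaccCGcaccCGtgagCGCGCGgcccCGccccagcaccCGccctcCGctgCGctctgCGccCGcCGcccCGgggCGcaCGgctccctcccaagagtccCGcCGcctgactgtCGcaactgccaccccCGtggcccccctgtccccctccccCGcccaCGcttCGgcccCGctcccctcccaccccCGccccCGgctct
Wnt10a: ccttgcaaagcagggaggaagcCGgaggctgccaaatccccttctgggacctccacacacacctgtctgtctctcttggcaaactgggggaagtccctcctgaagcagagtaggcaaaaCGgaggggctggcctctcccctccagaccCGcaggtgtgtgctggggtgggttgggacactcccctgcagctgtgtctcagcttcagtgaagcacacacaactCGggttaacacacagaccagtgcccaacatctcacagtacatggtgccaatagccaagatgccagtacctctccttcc
Ihh: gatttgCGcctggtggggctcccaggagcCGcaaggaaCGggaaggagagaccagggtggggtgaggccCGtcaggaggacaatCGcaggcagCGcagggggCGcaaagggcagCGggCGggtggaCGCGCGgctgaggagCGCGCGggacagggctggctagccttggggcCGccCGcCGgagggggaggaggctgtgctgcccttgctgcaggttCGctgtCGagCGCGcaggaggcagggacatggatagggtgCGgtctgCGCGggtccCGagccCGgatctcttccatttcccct
Epha4: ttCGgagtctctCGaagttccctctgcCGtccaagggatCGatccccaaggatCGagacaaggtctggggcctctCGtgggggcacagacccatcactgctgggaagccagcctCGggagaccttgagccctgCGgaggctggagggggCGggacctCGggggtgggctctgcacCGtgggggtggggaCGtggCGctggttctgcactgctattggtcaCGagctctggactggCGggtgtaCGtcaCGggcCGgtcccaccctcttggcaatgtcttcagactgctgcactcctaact

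The Wnt10a sequence stands apart in base composition. It holds 4 CpG, against 30 upstream of Wnt6, 27 upstream of Ihh and 18 upstream of Epha4. Its CpG ratio, the observed number of CpG over that expected from its C and G content, was 0.158. The ratio was 0.754 for Wnt6, 0.761 for Ihh and 0.579 for Epha4, and the median over 22374 protein-coding starts was 0.478. GC content was 77.0% upstream of Wnt6, 71.0% for Ihh, 64.7% for Epha4 and 58.3% for Wnt10a, against a median of 53.3%. Wnt6 and Ihh thus had the most CpG of the 4 members. Neither had a summit within 1 kb of its start in every library, but Wnt6 had one within 2 kb in all 4. A link between CpG content and start summits was not tested.

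Sequences of 300 bases centred on accessible regions are shown next for the regions that recur through the results. The first lies in an intron of Wnt6, and the others are the 3 desert regions away from starts that ranked highest among those present in all 4 lists. All are plus-strand sequence of mm9, at chr1:74819681-74819980 (Wnt6 intron), chr1:75769658-75769957 (desert A), chr1:75830047-75830346 (desert B) and chr1:77295216-77295515 (desert C). Capitals mark matches, on either strand, to the 5 motifs described further on.
Wnt6 intron: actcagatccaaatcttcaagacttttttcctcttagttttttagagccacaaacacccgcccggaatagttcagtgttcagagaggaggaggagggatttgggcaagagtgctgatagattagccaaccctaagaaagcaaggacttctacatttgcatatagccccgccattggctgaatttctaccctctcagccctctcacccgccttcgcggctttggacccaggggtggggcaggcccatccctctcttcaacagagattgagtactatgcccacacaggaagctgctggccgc
Desert A: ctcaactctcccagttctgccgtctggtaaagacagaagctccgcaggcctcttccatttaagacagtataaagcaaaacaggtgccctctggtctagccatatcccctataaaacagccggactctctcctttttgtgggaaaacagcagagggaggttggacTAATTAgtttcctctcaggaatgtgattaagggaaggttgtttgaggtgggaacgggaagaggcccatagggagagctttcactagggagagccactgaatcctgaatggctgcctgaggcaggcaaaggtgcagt
Desert B: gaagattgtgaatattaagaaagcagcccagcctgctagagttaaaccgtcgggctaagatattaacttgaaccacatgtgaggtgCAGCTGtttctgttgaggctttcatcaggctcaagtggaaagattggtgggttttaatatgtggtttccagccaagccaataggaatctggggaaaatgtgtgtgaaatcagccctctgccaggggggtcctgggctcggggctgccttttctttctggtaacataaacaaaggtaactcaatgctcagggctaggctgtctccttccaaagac
Desert C: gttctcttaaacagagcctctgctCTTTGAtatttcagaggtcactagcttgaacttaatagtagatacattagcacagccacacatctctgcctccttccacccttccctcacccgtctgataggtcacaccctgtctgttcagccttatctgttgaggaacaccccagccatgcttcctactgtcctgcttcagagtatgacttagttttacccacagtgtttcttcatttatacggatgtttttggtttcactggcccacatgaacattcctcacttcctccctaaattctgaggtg

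The receptor gene Epha4 was the only member with a summit within 1 kb of its start in all 4 lists. Across the genome, 57.5% of protein-coding genes had a start summit in all 4 lists and 34.5% had none in any. The Epha4 start summit had score percentiles of 71.8, 91.2, 84.1 and 89.3. The summits lay 78, 60, 31 and 40 bp upstream of the start, inside the sequence printed above. Stop cassette replicate 1 was the lowest and stop cassette replicate 2 the highest, so the genotypes overlapped. The difference of means, stop cassette minus wild type, was -5.19 percentile points (exact permutation test over libraries, two-sided, p = 1). Without stop cassette replicate 1 the difference turned to 4.53 points.

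Percentiles move with list length, which was 79083, 107827, 51701 and 68471 summits. With every list reduced to its 51701 strongest summits, the Epha4 start percentile was 56.8, 81.7, 84.1 and 85.8. Both stop cassette values then lay below both wild-type values, by -15.69 points on average (exact permutation test, two-sided, p = 0.333, the smallest that 2 against 2 libraries allow). Epha4 was thus among the 19.9% of 12244 genes whose start percentile was lower in both stop cassette lists at equal length. The opposite order was found for 20.2%.

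The Epha4 start was not a top-ranked promoter in these limb cells. Of the 12860 protein-coding genes with a start summit in every list, 16.3%, 37.1%, 45.0% and 48.8% ranked below it in the respective lists. The genes most like it, by the distance between percentiles over the 4 lists, were Emb and Gm17509, at a distance of 0.951. Both had percentiles of 72.4, 91.6, 84.6 and 89.6 and share the same start summits. Emb encodes embigin, a membrane glycoprotein.

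The other Eph receptors and the ephrins, the ligands they bind, were mostly open at their starts. A start summit was present in all 4 lists for 10 of 13 other Eph receptor genes and for 6 of 8 ephrin genes, read against the background of 57.5%. Ephb3 had the highest mean percentile of the receptors, with 97.8, 95.8, 96.6 and 97.2. Epha7 followed with 91.4, 95.7, 93.2 and 94.2. Epha8 had a start summit only in wild-type replicate 2, at 33.6. Among the ligands Efnb2 was highest, with 91.7, 88.8, 88.5 and 92.9. Ephb6 had 93.8, 94.1, 88.3 and 93.2. Epha4 itself thus ranked below Ephb3, Epha7 and Ephb6 in every list. Its mean percentile of 84.1 was above that of Epha5, the next receptor by mean, at 82.9.

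Ihh had a start summit in a single library. Wild-type replicate 1, the shortest list, held it 125 bp upstream of the start at a percentile of 36.6. In stop cassette replicate 2 and wild-type replicate 2 the nearest summit lay 2607 and 2578 bp into the gene, at percentiles of 30.9 and 12.4. In stop cassette replicate 1 the nearest was 12942 bp upstream. No test between genotypes was possible for a start listed in 1 library. The nearest region to Ihh in all 4 lists was intergenic, between Ihh and Nhej1 at chr1:75010938-75011831. Its percentiles were 58.0, 88.5, 16.0 and 74.4, with wild-type replicate 1 lowest, and the genotypes overlapped.

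The 2 other hedgehog ligand genes were also rarely listed. Shh, which patterns the limb along its thumb to little finger axis, and Dhh each had a start summit only in stop cassette replicate 2, at 28.5 and 13.7. The 7 genes examined for hedgehog receptors, co-receptors and binding proteins all had one in every list. Genome-wide, 57.5% of protein-coding genes had a start summit in all 4 lists and 34.5% had none. Ptch1, the receptor and a target of the pathway, had percentiles of 83.2, 86.1, 72.2 and 82.6. Smo, the signal transducer, had 79.9, 93.5, 94.9 and 91.2.

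Wnt6 had no summit within 1 kb of its start in any list. It had one in its intron in all 4, at 1322, 1382, 1399 and 1346 bp downstream of the start. The merged region, chr1:74819538-74820115, is 578 bp long, and the Wnt6 intron sequence printed above covers 300 bases of it. The region had percentiles of 71.5, 88.7, 56.7 and 89.8. Wild-type libraries gave both the lowest and the highest value, so the genotypes overlapped. When a summit within 2 kb was accepted as a start summit, the difference was 6.81 points (exact permutation test, two-sided, p = 1). Another Wnt6 intron region, beginning at 74823109, was listed in stop cassette replicate 2 alone, at 42.4. A further one began at 74829995, and had percentiles of 15.7 in stop cassette replicate 2, 12.2 in wild-type replicate 1 and 12.4 in wild-type replicate 2.

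Wnt10a had no start summit in any list at either 1 kb or 2 kb. The nearest summit was 11959, 3118 and 3154 bp downstream in both stop cassette libraries and wild-type replicate 2, and 7381 bp upstream in wild-type replicate 1. Inside the gene, a region over a coding exon, chr1:74849404-74850299, was present in all 4 lists at percentiles of 14.2, 70.0, 39.3 and 63.0. Past its 3′ end lay an intergenic region at chr1:74854351-74855198, with percentiles of 73.9, 82.1, 61.6 and 81.1. Another intergenic one followed at chr1:74863380-74864273, with 83.1, 88.5, 72.8 and 56.0. In this last region both stop cassette values lay above both wild-type values, as in 38.9% of the 23894 accessible regions listed in all libraries genome-wide. The opposite order held for 3.47%. At equal list length its percentiles were 74.1, 76.0, 72.8 and 41.7, the same order, which 20.7% of regions then had. In the other 2 regions the genotypes overlapped.

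Between Wnt6 and Wnt10a, a region beginning at 74834279 was listed in stop cassette replicate 2 (60.3) and wild-type replicate 2 (65.1) only. An intronic Wnt10a region beginning at 74840958 was held by the same 2 libraries, at 12.9 and 40.1. These 2 libraries are the longer list of each genotype. They alone held 6.57% of regions genome-wide and 13.2% of those on the gene-dense side. At equal list length the first region was still held by both, at 17.2 and 53.7. The second was then held by wild-type replicate 2 alone, at 20.6.

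Of the 17 other Wnt ligand genes, 7 had a start summit in all 4 lists, 6 in 1 to 3 lists and 4 in none, beside 57.5% of all genes in all 4 and 34.5% in none. Wnt1, Wnt7b, Wnt8a and Wnt8b were the 4. Wnt5a, a ligand of limb outgrowth, was listed in stop cassette replicate 2 at 12.4 and in wild-type replicate 2 at 7.06. Wnt7a, a signal of the dorsal limb ectoderm, and Wnt10b were each listed in both stop cassette libraries and in neither wild-type one, as were 1.03% of protein-coding genes. Wnt7a had percentiles of 1.71 and 54.5, and Wnt10b of 4.59 and 31.6. Both stop cassette lists are longer than both wild-type lists. The values in stop cassette replicate 1 rank too low to be among its 51701 strongest summits. At equal list length neither gene was thus listed in both stop cassette libraries. Of the 7 in all lists, Wnt4 had the highest mean percentile, with 45.2, 82.7, 51.9 and 70.2.

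Markers of the limb and of other cells were read at their starts in the same way. Of 8 limb mesenchyme genes, 5 had a start summit in all 4 lists, among them Prrx1, Hand2 and Twist1, and Tbx5 had none. The limb mesenchyme count is near the genome-wide 57.5%. Of 5 surface ectoderm genes, the layer in which Wnt6 and Wnt10a are known, Cdh1 had one in all 4, and Krt5 and Krt14 had none. All 4 lists held a start summit for 1 of 3 endothelial, 2 of 4 blood, 0 of 3 muscle precursor, 0 of 4 liver and 2 of 3 neuronal genes. A summit list gives no share of cells, so a few open cells and weak opening in many cannot be told apart.

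**Figure D1:**
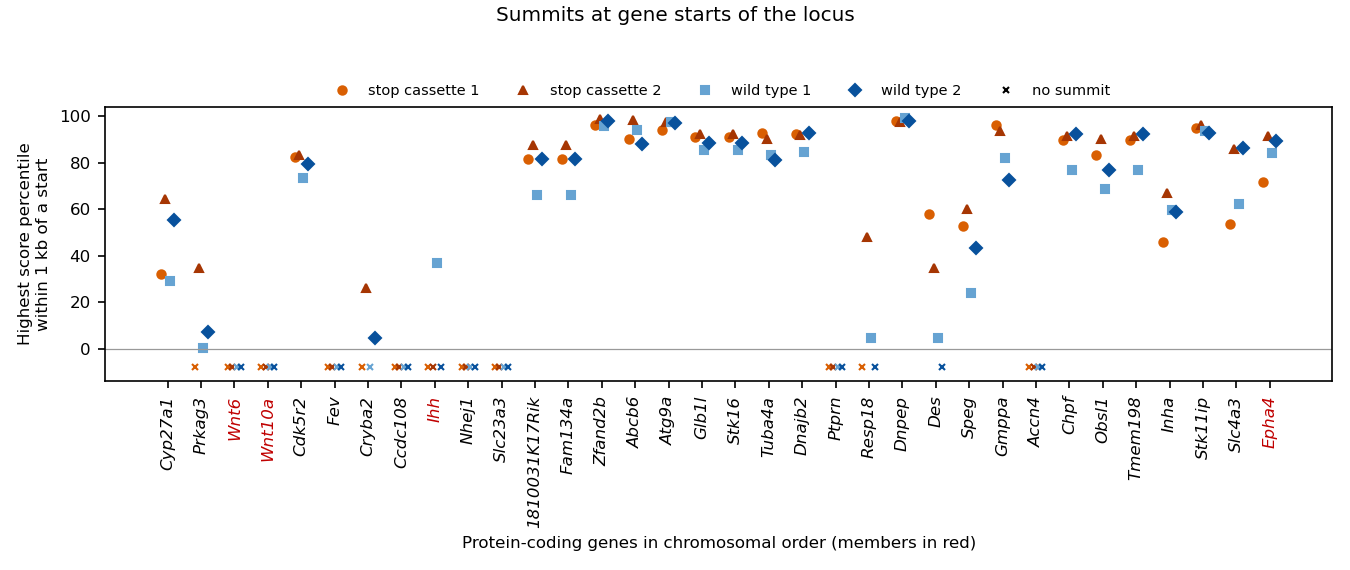
Highest score percentile within 1 kb of a start (vertical axis, 0 to 100) for the protein-coding genes of the window in chromosomal order, with 1 symbol per library and a cross below 0 where no summit was listed. Epha4 ranks between 71.8 and 91.2, Ihh appears in wild-type replicate 1 alone at 36.6, and Wnt6 and Wnt10a have no start summit.

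Around the members, the gene-dense side held the starts of 30 further protein-coding genes. Of these, 20 had a start summit in all 4 lists (57.5% of genes genome-wide), 2 in 3 lists, 2 in 2 lists and 6 in none (34.5% genome-wide). The 6 were Fev, Ccdc108, Nhej1, Slc23a3, Ptprn and Accn4. Fev is a transcription factor of serotonergic neurons and Ptprn a protein of neuroendocrine secretory granules. The strongest starts were those of Dnpep, an aminopeptidase, with percentiles of 97.9, 97.5, 99.3 and 97.9, of Zfand2b with 96.0, 98.7, 95.6 and 97.9, and of Atg9a, an autophagy membrane protein, with 93.9, 97.5, 97.5 and 97.0. All 3 ranked above Epha4 in every list.

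Among the 21 genes of the window with a start summit in all lists, Epha4 included, 8 had both stop cassette percentiles above both wild-type percentiles. Glb1l and Stk16, both among the 8, share their highest start summit in each list. Among the 21 the same holds for 1810031K17Rik with Fam134a and for Chpf with Tmem198. The counts are thus of genes and not of separate summits. The background for both stop cassette percentiles above was 41.2% of genes. Dnpep alone (1 of 21) had both below, against a background of 4.34%. At equal list length the counts were 2 of 20 above (Gmppa and Obsl1) and 4 of 20 below (Atg9a, Dnpep, Inha and Epha4). The backgrounds at equal length were 20.2% above and 19.9% below, so the 4 of 20 below matched the genome-wide share.

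The window as a whole held 100, 153, 79 and 102 summits. This was 0.126% of the list of stop cassette replicate 1 (95% Wilson interval 0.104% to 0.154%) and 0.142% of that of replicate 2 (0.121% to 0.166%). It was 0.153% of the list of wild-type replicate 1 (0.123% to 0.190%) and 0.149% of that of replicate 2 (0.123% to 0.181%). These intervals cover counting error only, and all 4 overlap. The share averaged 0.134% ± 0.0109 for stop cassette and 0.151% ± 0.00271 for wild type (SD, n = 2 each). The stop cassette shares were the lower ones (difference -0.0167 percentage points, exact permutation test, two-sided, p = 0.333).

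**Figure D2:**
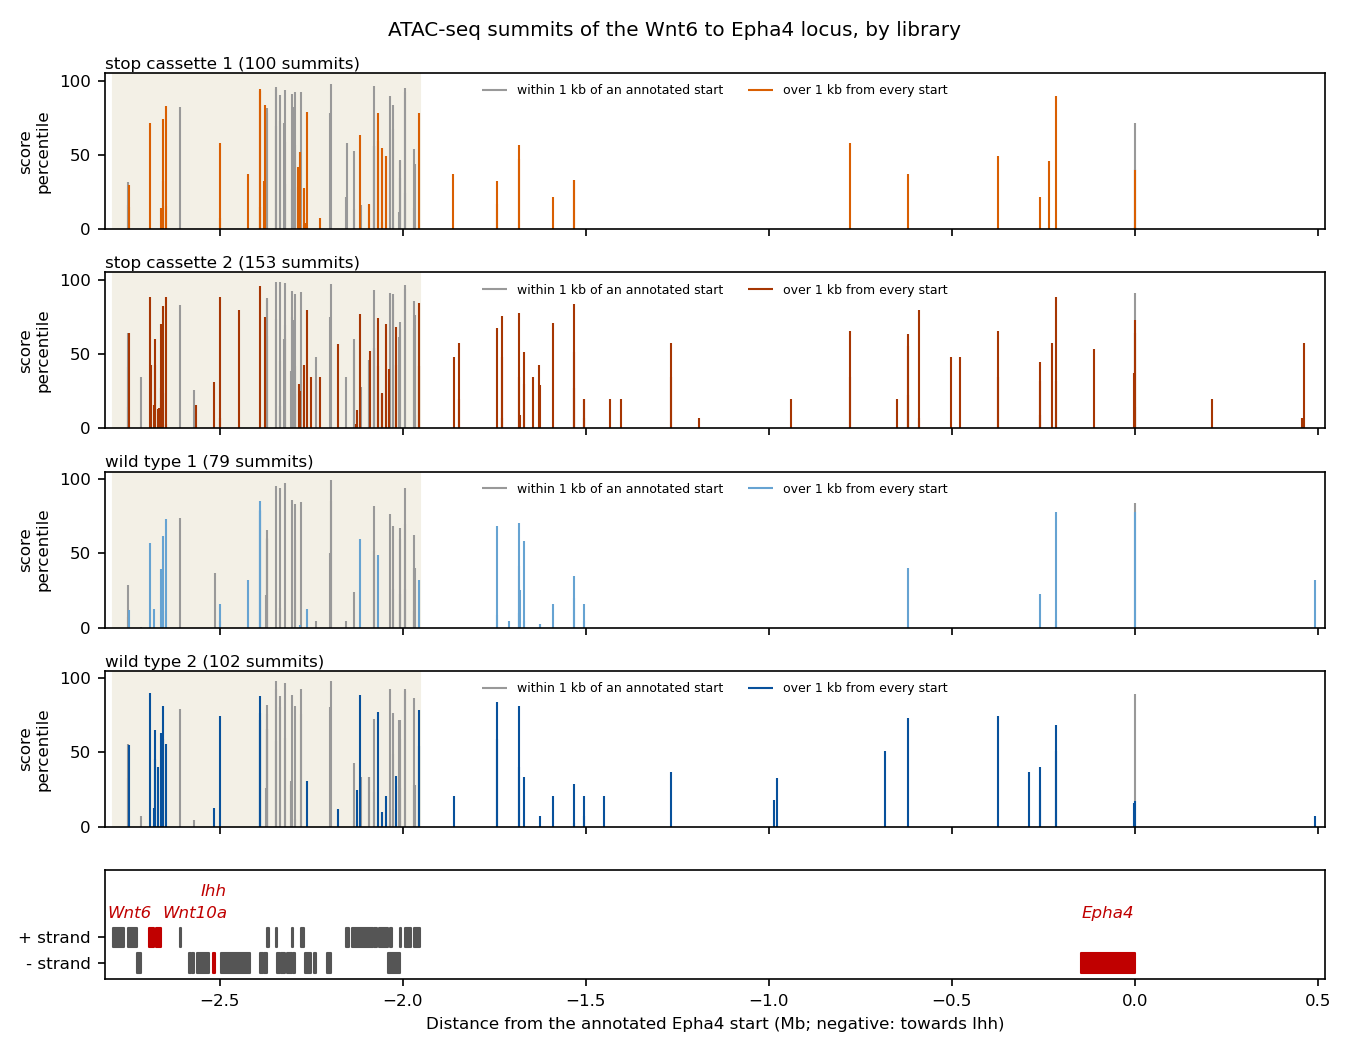
Summits of each library by distance from the Epha4 start in Mb (horizontal axis), with the score percentile as height, summits near a start in grey, distal ones in colour, the gene-dense side shaded, and protein-coding genes below with the members in red. Summits crowd on the gene-dense side in all 4 libraries and are sparse in the desert.

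The gene-dense side and the desert were compared within each library. The gene-dense side held 96.4, 116.6, 66.6 and 88.1 summits per Mb. The desert held 7.75, 22.4, 9.38 and 11.4 summits per Mb. The gene-dense side was higher in 4 of 4 libraries, 5.20 to 12.4 times, with a mean difference of 79.2 ± 16.4 per Mb (SD, n = 4). The exact sign-flip permutation test over libraries gave p = 0.125, two-sided, the smallest that 4 libraries allow.

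The contrast was narrower away from starts. On the gene-dense side 59.3%, 56.1%, 67.9% and 66.2% of summits lay within 1 kb of a start, and in the desert 15.8%, 3.64%, 4.35% and 3.57% did. Summits farther than 1 kb from any start, called distal here, reached 39.3, 51.2, 21.4 and 29.8 per Mb on the gene-dense side. In the desert they reached 6.52, 21.6, 8.97 and 11.0 per Mb. The gene-dense side was still higher in 4 of 4 libraries, 2.37 to 6.02 times, with a mean difference of 23.4 ± 9.43 per Mb (SD, n = 4; exact sign-flip permutation test, two-sided, p = 0.125). The difference was 15.09 per Mb at equal list length and 12.59 above the pooled median score.

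Desert summits also ranked lower. Their median percentile was 36.8, 37.5, 22.2 and 33.1, against 53.7, 55.3, 54.0 and 59.0 on the gene-dense side. The difference was 23.1 ± 7.05 points and had the same sign in 4 of 4 libraries (SD, n = 4; exact sign-flip permutation test, two-sided, p = 0.125). For distal summits alone it was 10.6 ± 10.3 points, positive in 3 of 4 libraries and 0 in the other (exact sign-flip permutation test, two-sided, p = 0.25). With lists at equal length this distal difference was 24.65 points, and above the pooled median score 17 points (exact sign-flip permutation test, p = 0.125 for both). Without wild-type replicate 2 it was 6.41 points.

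**Figure D3:**
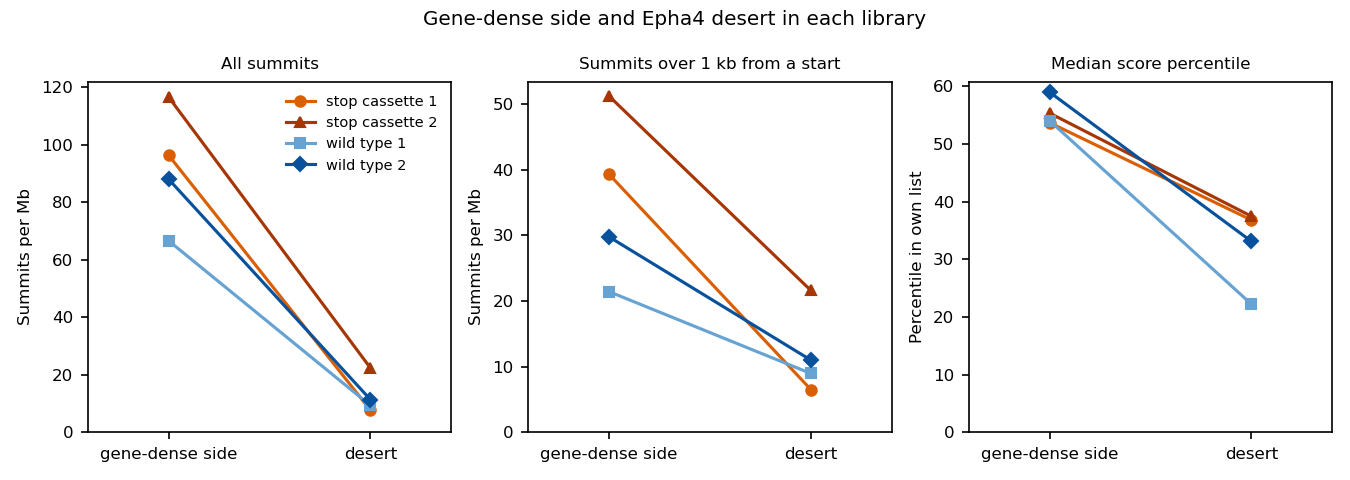
Summits per Mb and median score percentile on the gene-dense side and in the desert, with 1 line per library: density of all summits, density of distal summits, and the percentile of all summits. The gene-dense side is higher in each panel in all 4 libraries.

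The libraries differed in how much of the locus lay in the desert. The desert held 19, 55, 23 and 28 summits, which was 19.0% (95% Wilson interval 12.5% to 27.8%), 35.9% (28.8% to 43.8%), 29.1% (20.3% to 39.9%) and 27.5% (19.7% to 36.8%) of the window's summits. Both extremes were stop cassette libraries, and without replicate 1 of that genotype the difference between genotypes was 7.665 points. The genotype means were 27.5% ± 12.0 and 28.3% ± 1.18 (SD, n = 2 each), a difference of -0.809 percentage points (exact permutation test, two-sided, p = 1). The widest stretch of the desert without a summit was 753.6, 252.0, 886.4 and 492.7 kb. These were not one and the same stretch. In wild-type replicate 2 it lay after Epha4, at chr1:77512895-78005550, and in the other libraries between Slc4a3 and Epha4.

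The stretch of 1.805 Mb from Slc4a3 to Epha4 was set beside the other gaps of at least 1 Mb between protein-coding genes. With it there were 269. It held 7.76, 25.5, 11.1 and 13.3 summits per Mb. The median gap held 3.64, 9.44, 3.29 and 5.05. The Epha4 gap ranked at percentiles 75.4, 85.8, 94.0 and 83.6 among these gaps, above the median in each library. Regions held by all 4 lists, which are defined below, reached 3.32 per Mb in it against a median of 1.18, at percentile 81.0. Sparse beside its gene-dense neighbour, the Epha4 gap was thus richer in summits than most gaps of at least 1 Mb. Gaps without a summit in any list were kept in this ranking, such as the 7.20 Mb from Gm5591 to Gm16387. Gaps are not replicates, and this rank is a description.

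**Figure D4:**
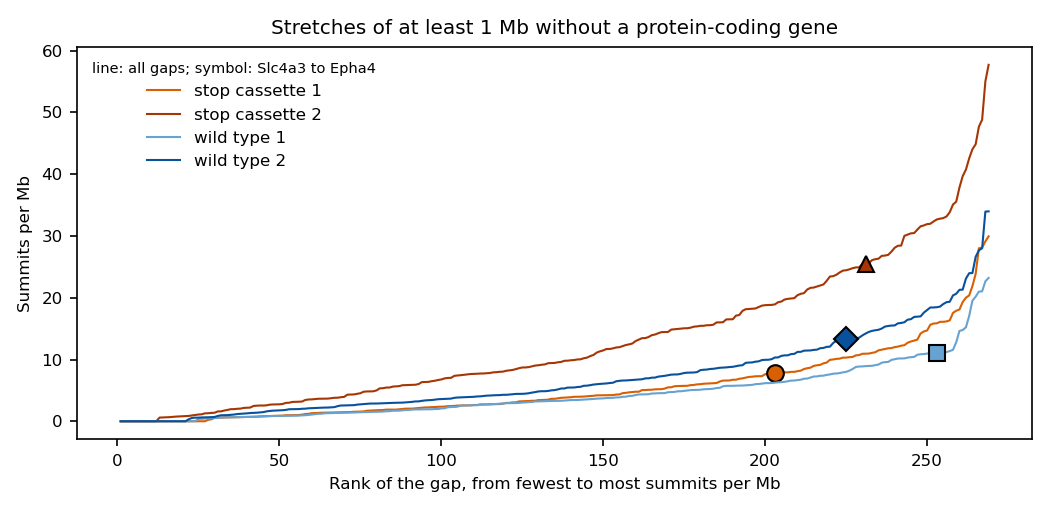
Summits per Mb (vertical axis) in the 269 gaps of at least 1 Mb between protein-coding genes, ordered from fewest to most summits, with 1 line per library and the gap before Epha4 as a symbol. The Epha4 gap lies above the median gap in all 4 libraries, at percentiles from 75.4 to 94.0.

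Summits of all lists were next merged into regions, by extending each by 250 bp on both sides and joining those that overlapped. The window held 112 regions. All 4 lists held 36 of them (32.1%), against 32.0% of 74669 regions genome-wide. On the gene-dense side this was 29 of 68 regions (42.6%), and in the desert 7 of 44 (15.9%). Among distal regions it was 11 of 37 (29.7%) on the gene-dense side and 6 of 43 (14.0%) in the desert, against 19.0% genome-wide. Of the 44 desert regions, 26 were held by a single list, and 18 of these were in stop cassette replicate 2 alone, the longest list. Stop cassette replicate 2 held 35 of the 44, and the other libraries held 12, 13 and 22. Without stop cassette replicate 1, 12 desert regions were in all 3 remaining lists.

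**Figure D5:**
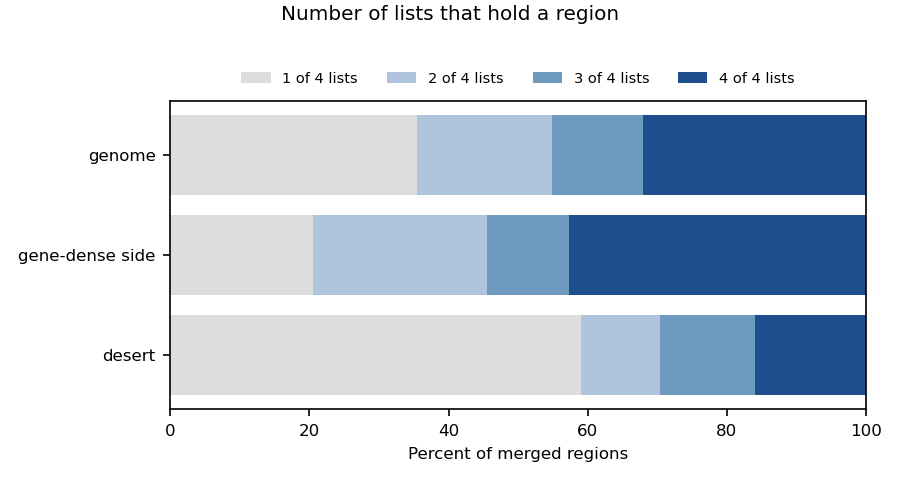
Share of merged regions by the number of lists that hold them, for the gene-dense side, the desert and the genome. Regions held by all 4 lists make up 42.6% of the gene-dense side, 15.9% of the desert and 32.0% of the genome.

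The desert regions shared by all lists were Epha4's start region and 6 distal ones. Desert C, chr1:77295066-77295901, lies past the 3′ end of Epha4, 216.3 kb from its start. It had percentiles of 89.3, 88.3, 77.4 and 68.6, and both stop cassette values were above both wild-type values, as in 38.9% of regions genome-wide. At equal list length its values were 83.7, 75.5, 77.4 and 58.4, and the genotypes overlapped. Desert B, chr1:75829623-75830633, had percentiles of 57.0, 77.7, 70.1 and 81.3. Desert A, chr1:75769438-75770137, had 32.2, 67.7, 68.6 and 83.9. In desert A both stop cassette values lay below both wild-type values (3.47% of regions genome-wide), and in desert B the genotypes overlapped. At equal list length desert B had 34.2, 53.6, 70.1 and 75.3, with both stop cassette values below, as in 18.9% of regions at that length. Desert A was then missing from stop cassette replicate 1 and had 32.6 in replicate 2, against 68.6 and 78.7 in wild type. The remaining shared regions included chr1:76892655-76893533, with 36.8, 63.2, 39.9 and 72.9, and chr1:75979481-75980613, with 33.2, 84.0, 34.7 and 28.5. On the gene-dense side the strongest distal region in all 4 lists was chr1:75121035-75122474, intergenic, 9178 bp from the start of Slc23a3, with 94.0, 95.8, 85.0 and 87.7.

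Regions held by both libraries of a genotype and neither of the other were few. In the window 7 of 112 regions (6.25%) were specific to stop cassette, against 10.0% genome-wide, and 1 (0.893%) to wild type, against 0.313%. With lists at equal length the window held 5 and 2 such regions, and the genome-wide shares were 5.21% and 2.24%. The window then held fewer than the 112 regions, so these counts are not shares of 112. Of the 7, 6 were on the gene-dense side and none lay in a member. The strongest was in an intron of 1810031K17Rik, beginning at 75132841, with percentiles of 83.6 and 75.0. In the desert a single stop cassette-specific region, chr1:76733465-76734172, lay 777.9 kb from the Epha4 start, with 58.0 and 65.3. The wild type-specific region, chr1:78005297-78005800, had 31.7 and 7.06. At equal length the regions beginning at 75132841, 75187067 (an intron of Atg9a) and 76733465 were still held by both stop cassette lists only. The other 2 stop cassette-specific regions at that length began at 75214973 and 75464076, and lie within regions that 4 and 3 lists held as deposited. The wild type-specific region was held by a single list. Leaving out a library loosens the rule to a single list of that genotype or of the other. The stop cassette-specific count was then 34 without stop cassette replicate 1, and 13 without either stop cassette replicate 2 or wild-type replicate 2.

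Sequence windows of 300 bases at the centre of each region were searched on both strands for 5 short motifs. These were TAATTA, a homeodomain core, CTTTGA, of the Tcf and Lef factors that act in Wnt signalling, GACCACCC, of the Gli factors that act in hedgehog signalling, CCAATAAA, of posterior Hox factors, and CAGCTG, an E-box. TAATTA occurred in 7 of 44 desert windows (15.9%), in 1 of 68 gene-dense windows (1.47%) and in 8.05% of 74578 windows genome-wide. CTTTGA occurred in 29.5%, 14.7% and 17.9% of the same sets. In windows held by all 4 lists, CTTTGA was in 1 of 7 desert (14.3%), 10.3% of gene-dense and 13.2% of genome-wide windows. TAATTA was then in 2 of 7 desert windows, 0 of 29 gene-dense windows and 4.53% genome-wide. GACCACCC occurred in 2 desert windows (4.55%) and 1 gene-dense window, against 0.814% genome-wide. CAGCTG occurred in 20.5%, 27.9% and 22.9%. CCAATAAA occurred in 1 window on each side, against 1.58% genome-wide. Median GC content differed too, at 47.2% in desert, 59.2% in gene-dense and 50.7% in all windows, and its part in the motif shares was not tested. Among the sequences printed above, desert A holds TAATTA, desert B CAGCTG and desert C CTTTGA, each at 1 position, and the Wnt6 intron holds none of the 5. A match is a description of these letters only.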

How the data were processed

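ATAC-seq libraries from E11.5 mouse limbs (2 stop cassette, 2 wild type) were analysed. Reads were aligned to mm9, with Bowtie2 2.2.6 and Picard named in the submitters' processing notes. Names within the deposited lists carry tags for removal of duplicates and mitochondrial reads and for a mapping quality of 30. The peak caller, any shift for the transposase and any control are not given in the sources used here. The deposited value per summit was read as −log10 of a q-value, from its lowest values of 1.302 to 1.307, and used as a rank within its list, except in an alternative that set a common score threshold of 5.83 (the pooled median) and so carries differences in depth between lists. Read depth is unknown, because the lists give no counts, and longer lists raise the percentile of strong sites.

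Genes came from GENCODE M1 on NCBIM37 (mm9), and 0 summits lay beyond a chromosome end. A start summit lies within 1 kb of an annotated start. Regions are summits extended by 250 bp and merged at 1 bp of overlap. Tests were exact permutation or sign-flip tests over libraries, two-sided. Named regions were the 3 distal regions per side with the highest mean percentile among those in all 4 lists, and every genotype-specific region. Other regions near the members were chosen after their values were seen. Members and lists were chosen with earlier results of these data known. Python 3.11.15, numpy 2.4.6 and scipy 1.17.1 were used, and the counting was tested on simulated lists.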

Additional observations from a re-analysis of the deposited data

How the results depend on the processing

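The density contrast between the gene-dense side and the desert kept its direction under each alternative run for it, with differences of 46.99 to 78.81 summits per Mb, and 74.19 to 86.5 when a library was left out. For distal summits it was 12.59 to 26.85, and 20.25 to 27.02. The lower window share in stop cassette lists also kept its direction (-0.02444 to -0.008991 percentage points). The difference in desert share turned to 4.658 points with scores above the pooled median of 5.83, and ranged from -9.282 to 7.665 when a library was left out, reversing without stop cassette replicate 1 and, at 0.02288, without wild-type replicate 1. The Epha4 start percentile difference ranged from -14.91 to 4.527 when a library was left out, and reversed without stop cassette replicate 1. Without a library, stop cassette-specific regions numbered 9 to 34. Wild type-specific regions numbered 1 to 7, with 7 when stop cassette replicate 2 or wild-type replicate 1 was left out and 3 when it was wild-type replicate 2. Desert regions in all remaining lists numbered 8 to 12, those of the window 38 to 43 and those of the gene-dense side 30 to 33. At equal list length, wild type-specific regions numbered 2 and desert regions in all lists 4. Above the pooled median score, 23 window regions and 3 desert regions were in all lists, and 0 were wild type-specific. Extensions of 50 and 100 bp gave 4 and 2 wild type-specific regions. A start distance of 2 kb gave Wnt6 a difference of 6.813. The Ihh start summit was in 0 lists above the pooled median or without wild-type replicate 1. For gaps of at least 0.5 and 1.5 Mb, sizes added after the data were seen, the gap before Epha4 ranked at 72.3 and 93.3 by its mean, and at 84.7 for 1 Mb. For Ihh, Wnt6 and Wnt10a no start percentile difference could be set at 1 kb.

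With the replicate number as a block, the differences were -0.01671 for the window share (exact sign-flip permutation test, p = 0.5, the smallest that 2 pairs allow), -0.8086 for the desert share (exact p = 1) and -5.192 for the Epha4 start (exact p = 1). Same-numbered libraries deviated together with a correlation of 0.181 over 23894 regions, and the labels do not say that a number marks a shared source. Replicate 2 was the longer list in both genotypes, and the part of list length in this correlation was not tested. Names inside the wild-type lists carry a shared R1 with sub-numbers, so these libraries may be technical repeats. Depth limits every missing summit: an unlisted start is not shown to be closed.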
